A study of Homo sapiens with 4 samples.

Results

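The endoplasmic reticulum (ER) chaperones, the unfolded protein response and ER-associated degradation (ERAD) were described here through 46 genes listed by their known function, a list drawn up with earlier results of these data known. A gene counted as measured where the HG-U133 Plus 2.0 array carries a probe set that the platform annotation gives to that gene alone. This held for 43 of the 46 genes, with 109 probe sets, out of 19775 genes and 54613 probe sets in all. PDIA5, TXNDC5 and SYVN1 were each listed only on a probe set shared with another gene and have no value. The genes fell into 5 roles: 9 sensors and regulators, 9 chaperones, 8 folding enzymes, 13 ERAD genes and 4 genes of translocation and export.

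RNA came from Kit225, an established human leukemic T cell line that needs interleukin-2 to grow, so every value is from 1 cell line. The tested cells received NC1153, a compound known as an inhibitor of signalling by the kinase JAK3, and the control cells received its solvent DMSO at 0.1%, both for 12 hours and both in cultures maintained with 20 U/ml interleukin-2. The labels write the NC1153 dose as 25 mM, a unit that could not be checked. Each group had 2 arrays, numbered 1 and 2, and nothing states whether they came from separate cultures, so p-values reflect no more than the differences among these 4 samples, which can be technical. These are bulk samples, in which fewer cells of a type and less RNA per cell cannot be told apart.

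Proteins that enter the ER are folded by chaperones such as BiP (the product of HSPA5) and by enzymes that form disulfide bonds. When unfolded proteins build up, the sensor ATF6 is cut in the Golgi and becomes a transcription factor, the sensor IRE1 (from ERN1) splices XBP1 mRNA into its active form, and the kinase PERK (from EIF2AK3) slows translation while the mRNA of ATF4 is still translated. ATF6 and spliced XBP1 are known to act on chaperone and ERAD genes, and ATF4 on DDIT3 and TRIB3.

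The stretch of 250 bases before the transcription start is shown for HERPUD1 and DERL2, the called genes with the largest changes below, and for XBP1 and the classic chaperone gene HSPA5. Sequences and coordinates are from NCBI RefSeq (GRCh38.p14), 5′ to 3′ on the gene's strand, and capitals mark matches of the motifs described next. XBP1 has several start windows, and the one shown was chosen after its matches were seen.
HERPUD1, chr16:56931892-56932141, plus strand: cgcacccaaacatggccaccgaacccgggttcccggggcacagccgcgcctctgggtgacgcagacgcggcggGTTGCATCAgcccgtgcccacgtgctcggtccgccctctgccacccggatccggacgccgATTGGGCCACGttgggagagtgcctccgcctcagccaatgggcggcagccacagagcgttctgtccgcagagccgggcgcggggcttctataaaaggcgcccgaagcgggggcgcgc
DERL2, chr17:5486179-5486428, minus strand: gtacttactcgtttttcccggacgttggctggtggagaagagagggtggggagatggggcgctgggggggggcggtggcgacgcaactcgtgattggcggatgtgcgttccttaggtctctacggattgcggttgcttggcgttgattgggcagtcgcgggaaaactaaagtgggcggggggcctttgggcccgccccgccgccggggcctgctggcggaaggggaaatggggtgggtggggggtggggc
XBP1, chr22:28800570-28800819, minus strand: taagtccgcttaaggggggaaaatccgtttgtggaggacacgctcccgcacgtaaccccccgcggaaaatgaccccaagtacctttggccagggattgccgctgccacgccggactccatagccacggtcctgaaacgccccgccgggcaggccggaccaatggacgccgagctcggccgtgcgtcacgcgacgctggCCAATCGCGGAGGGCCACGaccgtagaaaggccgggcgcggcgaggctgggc
HSPA5, chr9:125241344-125241593, minus strand: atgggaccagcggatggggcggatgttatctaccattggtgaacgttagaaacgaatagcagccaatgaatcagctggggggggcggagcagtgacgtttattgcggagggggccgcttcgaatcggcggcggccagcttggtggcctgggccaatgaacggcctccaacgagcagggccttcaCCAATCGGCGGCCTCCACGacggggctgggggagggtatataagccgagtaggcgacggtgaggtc

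The motifs searched on both strands were ERSE (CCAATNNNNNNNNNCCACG) and ERSE-II (ATTGGNCCACG), the ER stress response elements, UPRE (TGACGTGG), known as an XBP1 and ATF6 element, and CARE (TGATGNAAN), known as an element of ATF4 with C/EBP factors. In HSPA5 the capitals are an ERSE match 66 to 48 bases before the start, and in XBP1 an ERSE match 52 to 34 bases before it. HERPUD1 held an ERSE-II match 117 to 107 bases before the start and a CARE match on the opposite strand 177 to 169 bases before it. DERL2 held none of the 4 in this stretch. These matches are descriptions of letters, not of binding.

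Over windows of 300 bases (250 before to 50 after each start), ERSE occurred in 9 of the 42 genes described here that have a window, against 0.0916% of all 27305 genes. Those 9 were XBP1, HSPA5, HSP90B1, CALR, CANX, CRELD2, PDIA6, ERO1B and SERP1. ERSE-II occurred in HYOU1, SDF2L1 and HERPUD1, against 0.0696% of all genes. UPRE occurred in HYOU1, TXNDC5, TXNDC11, UBE2J1 and VCP (11.9% of the 42), against 0.927% of all genes. CARE occurred in CREB3L2 and HERPUD1, 4.76% of the 42 and so close to the 4.45% of all genes. The short parts CCACG and CCAAT also lie inside the longer elements. They occurred in 73.8% and 69% of the 42 genes, against 42.1% and 39.7% of all genes.

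Across the whole array, the NC1153 arrays had median signals of 88.6 and 61.8, against 69.7 and 69.5 for the DMSO arrays. NC1153 replicate 1 stood apart: the authors' table gives it a scaling factor of 6.68, against 2.97 for NC1153 replicate 2 and 2.88 and 2.66 for the DMSO arrays, so it was the dimmest before scaling. Of 10 T cell markers, CD2, ZAP70, CD247, TRAT1 and IL2RA lay above the median signal of 72.3, while CD3D, CD3E, CD3G, CD5 and LCK lay below it. The summed T cell marker signal was 32501 and 27377 on the NC1153 arrays, against 33938 and 33568 for DMSO. By limma, 0 of these markers passed the threshold, with 1 (CD2, lower) at an unadjusted p under 0.05. The brightest probe set of all 43 ER genes and 100 of the 109 probe sets lay above this median, which covers all probe sets. By brightest probe set, all genes had medians of 156 and 109 on the NC1153 arrays, against 132 and 126 for DMSO. The 43 genes had medians of 2644 and 2696, against 2209 and 2128, with ATF6B and DERL3 near the level of all genes.

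The comparison asks which ER genes differed after NC1153. With each gene represented by its brightest probe set, 7 of 43 genes rose with NC1153: the ERAD genes HERPUD1, HERPUD2, EDEM1 and DERL2 and the regulators ERN1, XBP1 and CREB3. None fell, and 36 did not pass (limma on log2 signal, Benjamini-Hochberg adjusted p under 0.05 over all probe sets). Of all 19775 genes, 3.09% rose and 2.84% fell. All 43 genes lay above the median signal, and dim genes are called less often. In a fit without dim probe sets, 7.97% of 11940 genes were called higher and 7.41% lower. With all probe sets tested, 10 of the 43 genes were higher and 2 lower at an unadjusted p under 0.05. All genes gave 10.7% higher and 9.66% lower at that level. Both NC1153 arrays lay above both DMSO arrays in 18 of the 43 genes and below both in 9, while over all genes this held for 24.5% and 23.8%. The median log2 change was 0.084 over the 43 genes and 0.0020 over all genes. By probe set, 8 of 109 were called higher and 1 lower, with a background of 1.94% higher and 1.78% lower.

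The count rests partly on single arrays and on the scaling. It was 4 genes higher without NC1153 replicate 1, where 1.49% of all genes were called higher, and 4 without DMSO replicate 1, where 2.05% were. Without NC1153 replicate 2 there were 4 genes lower, with 3.80% of all genes lower. It was 0 with median centring, with centring on spiked-in controls and with an eBayes fit without a variance trend, where 7, 4 and 5 genes had an unadjusted p under 0.05 in that direction. These settings called few genes higher in the whole array: 14, 49 and 0 of 19775.

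**Figure D1:**
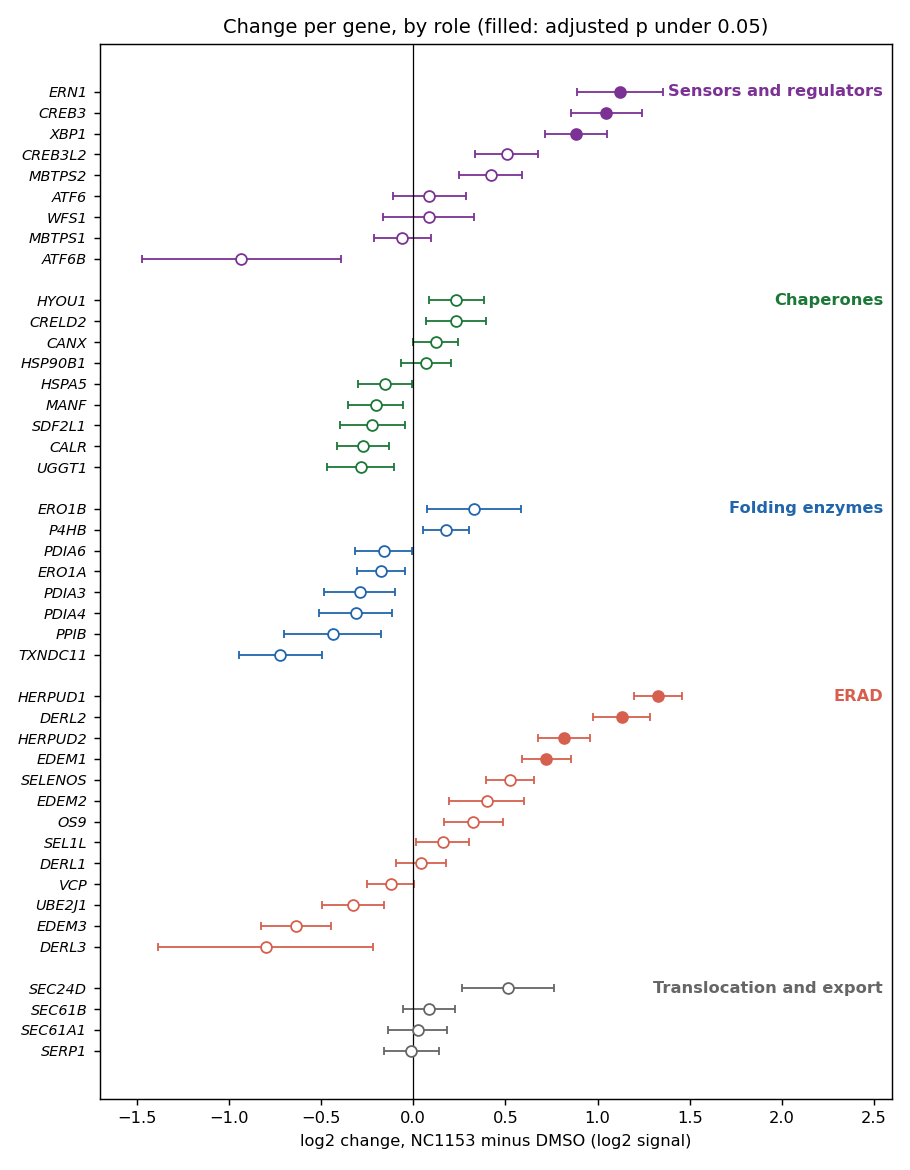
The plot gives the log2 change (NC1153 minus DMSO) of each of the 43 genes by role as a point with a bar of ± 1 standard error of the limma fit (n = 2 arrays each), filled where the adjusted p was under 0.05. The 7 filled points all lie to the right of 0, 4 in the ERAD block and 3 among the sensors and regulators, with none among chaperones, folding enzymes or translocation genes.

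The roles differed in where their genes lay. The median log2 change was 0.42 for sensors and regulators and 0.33 for ERAD genes, with −0.0094 and −0.10 when arrays were centred on spiked-in controls, where the median of all genes was −0.43. It was −0.16 for chaperones, with 0.016 when DMSO replicate 1 was left out, and −0.23 for folding enzymes, with 0.011 when NC1153 replicate 1 was left out. It was 0.055 for the 4 genes of translocation and export, whose members lay between −0.0097 and 0.51. No test compared the roles, and the order of their medians is a description. Centred on spiked-in controls, chaperones had −0.59, folding enzymes −0.66 and translocation genes −0.38.

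Sensors and regulators held 3 genes that rose and none that fell among 9, where 3.09% of all genes rose and 2.84% fell. ERN1, which encodes the kinase and endoribonuclease IRE1, had a signal of 644 and 544 on the NC1153 arrays, against 269 and 275 on the DMSO arrays. Both NC1153 arrays were well above both DMSO arrays, with a log2 change of 1.12 ± 0.23 (SE, adjusted p = 0.033). The other ERN1 probe sets did not share this: they had values of −0.24 and −0.34 and did not pass. ERN1 did not pass once NC1153 replicate 1 was left out (adjusted p = 0.12), nor without DMSO replicate 1 (0.067).

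XBP1, the transcription factor gene whose mRNA IRE1 splices, had a signal of 2706 and 3627 on the NC1153 arrays, against 1746 and 1652 on the DMSO arrays. The NC1153 arrays lay above the DMSO arrays and differed from each other more than the DMSO arrays did. XBP1 rose by 0.88 ± 0.17 on the log2 scale (SE, adjusted p = 0.024), and the call held with any 1 array left out. The difference was 0.63 between the arrays numbered 1 and 1.13 between those numbered 2. A dim XBP1 probe set had 139 and 25.6 on the NC1153 arrays, against 11.9 and 100 on the DMSO arrays. Its log2 change of 0.79 did not pass (adjusted p = 0.86). Splicing of XBP1 mRNA was not measured.

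CREB3, an ER-anchored transcription factor that is released by Golgi proteases as ATF6 is, had 1601 and 1248 on the NC1153 arrays, against 637 and 733 on the DMSO arrays. The groups did not overlap, and CREB3 rose by 1.05 ± 0.19 (SE, adjusted p = 0.019). Without NC1153 replicate 1 it no longer passed (0.086). Its relative CREB3L2 had a log2 change of 0.51 (adjusted p = 0.18), and a dimmer CREB3L2 probe set one of 1.48 (0.068, or 0.017 with the replicate number as a block). Of the Golgi proteases that cut these factors, MBTPS2 had a log2 change of 0.42 (adjusted p = 0.27) and MBTPS1 one of −0.059 (0.93).

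ATF6 itself had a signal of 1326 and 934 on the NC1153 arrays, against 1059 and 1035 on the DMSO arrays. The NC1153 arrays lay on either side of the DMSO arrays, and the log2 change of 0.088 ± 0.20 did not pass (SE, adjusted p = 0.91). Its relative ATF6B was near the median signal of the array, where single probe sets scatter: its 3 probe sets had log2 changes of −0.93, 0.97 and 2.53, none past the threshold. WFS1, whose product wolframin is an ER membrane protein, had a log2 change of 0.084 (adjusted p = 0.94) by its brightest probe set and 1.90 (0.13) by a dimmer one.

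Among the 13 ERAD genes, 4 rose and none fell, and all 13 had the same sign in both replicate numbers, 9 higher and 4 lower. Over all genes, 3.09% were called higher and 2.84% lower. By sign, 31.5% of all genes were higher in both numbers, 31.0% lower in both and 37.5% opposite. HERPUD1, an ER membrane protein with a ubiquitin-like domain that helps to assemble ERAD complexes, had the largest change of the 43 genes by their brightest probe sets. Its signal was 16844 and 15126 on the NC1153 arrays, against 6063 and 6668 on the DMSO arrays. The gap between groups far exceeded the gap within them. HERPUD1 rose by 1.33 ± 0.13 (SE, adjusted p = 0.0018) and was called with any 1 array left out. With centring on spiked-in controls, which lowers the median of all genes, it had a log2 change of 0.90 (adjusted p = 0.053).

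DERL2 encodes a derlin, a membrane protein of the channel through which ERAD substrates leave the ER. It had 2935 and 2914 on the NC1153 arrays, against 1218 and 1463 on the DMSO arrays. The NC1153 arrays were nearly equal and well above both DMSO arrays, and DERL2 rose by 1.13 ± 0.15 (SE, adjusted p = 0.0060). A dimmer probe set of DERL2 had a log2 change of 1.32 (adjusted p = 0.069, or 0.030 with the replicate block). The other derlins had smaller or opposite values. DERL1 had a log2 change of 0.043 (adjusted p = 0.94) by its brightest probe set, and −0.50 (0.11) and −0.65 (0.096, or 0.028 with the replicate block) by the next 2. DERL3 had 150 and 50.7 on the NC1153 arrays, against 152 and 152 on the DMSO arrays, so its log2 change of −0.80 (adjusted p = 0.60) came from NC1153 replicate 2.

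HERPUD2, a relative of HERPUD1, had 2644 and 2585 on the NC1153 arrays, against 1454 and 1515 on the DMSO arrays. All 4 values were tight within their group, and HERPUD2 rose by 0.82 ± 0.14 (SE, adjusted p = 0.016). Its next probe set also rose, by 1.04 (adjusted p = 0.010), with 2328 and 2347 on the NC1153 arrays, against 1027 and 1260 on the DMSO arrays. That probe set was called with any 1 array left out, while the brightest was not without DMSO replicate 1 (0.063).

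EDEM1, which trims mannose from misfolded glycoproteins and so marks them for removal, had 4345 and 4146 on the NC1153 arrays, against 2655 and 2492 on the DMSO arrays. The groups were well apart, and EDEM1 rose by 0.72 ± 0.13 (SE, adjusted p = 0.021). It did not pass once NC1153 replicate 1 was left out (adjusted p = 0.053), nor without DMSO replicate 1 (0.064) or DMSO replicate 2 (0.12). The 3 EDEM genes did not share a direction. EDEM2 had a log2 change of 0.40 (adjusted p = 0.40). EDEM3 had 1093 and 1550 on the NC1153 arrays, against 1927 and 2128 on the DMSO arrays, both below both, with a log2 change of −0.64 ± 0.19 (SE, adjusted p = 0.12, or 0.019 with the replicate number as a block).

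The membrane protein SELENOS, which recruits the ATPase VCP to the derlins, had 5899 and 5423 on the NC1153 arrays, against 3894 and 3956 on the DMSO arrays. The arrays did not overlap, but the log2 change of 0.53 ± 0.13 missed the threshold (SE, adjusted p = 0.063, or 0.024 with the replicate block). VCP, which pulls substrates out of the membrane, had a log2 change of −0.12 (adjusted p = 0.74) and −0.55 (0.080, or 0.038 with the replicate block) by its 2 probe sets. SEL1L, the partner of the ubiquitin ligase encoded by SYVN1, had 3345 and 3982 on the NC1153 arrays, against 3237 and 3302 on the DMSO arrays. Its arrays did not overlap either, by a small margin, and its log2 change of 0.16 did not pass (adjusted p = 0.69). Dimmer SEL1L probe sets had log2 changes of 0.53 (adjusted p = 0.20), 0.41 (0.45) and −0.14 (0.92). The lectin gene OS9 had a log2 change of 0.33 (adjusted p = 0.38) and the ubiquitin-conjugating enzyme gene UBE2J1 one of −0.33 (0.40).

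**Figure D2:**
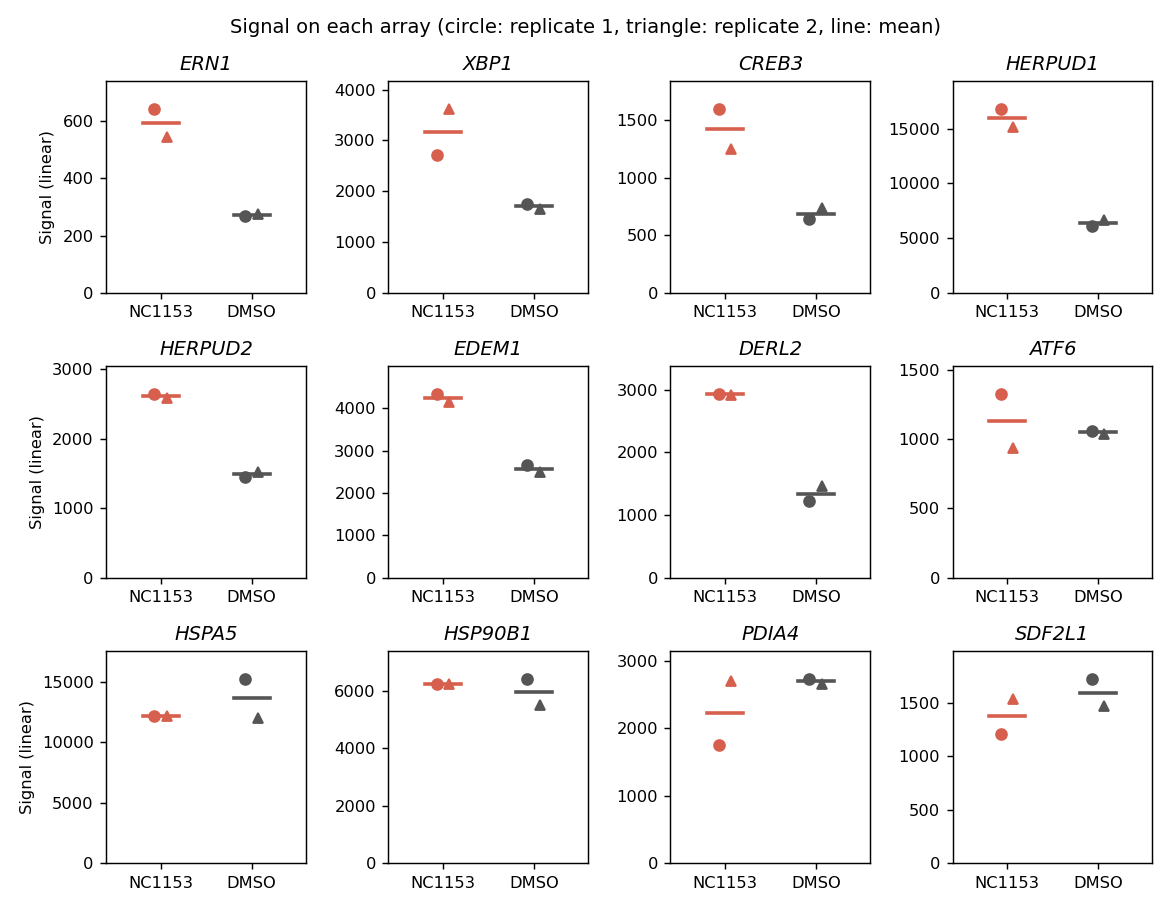
Each panel gives the linear signal of a gene on the NC1153 arrays (left) and the DMSO arrays (right), with a circle for replicate 1, a triangle for replicate 2 and a line at the group mean. In ERN1, XBP1, CREB3, HERPUD1, HERPUD2, EDEM1 and DERL2 both NC1153 points lie above both DMSO points, while in ATF6, HSPA5, HSP90B1, PDIA4 and SDF2L1 the groups overlap.

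By brightest probe set, none of the 9 chaperone genes passed in either direction by limma, and none had an unadjusted p under 0.05. Of all genes, 10.7% were higher and 9.66% lower at that unadjusted level. HSPA5, whose product BiP is the central ER chaperone, had 12141 and 12186 on the NC1153 arrays, against 15250 and 12028 on the DMSO arrays. The NC1153 arrays lay between the DMSO arrays, and the log2 change was −0.16 ± 0.15 (SE, adjusted p = 0.71). HSP90B1, the ER form of HSP90, had 6265 and 6241 on the NC1153 arrays, against 6433 and 5504 on the DMSO arrays. Here too the NC1153 arrays were between the DMSO arrays, with a log2 change of 0.072 ± 0.14 (SE, adjusted p = 0.89).

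SDF2L1, a co-factor of BiP, had 1211 and 1538 on the NC1153 arrays, against 1726 and 1468 on the DMSO arrays. The groups overlapped, and the log2 change was −0.22 (adjusted p = 0.64). MANF, a secreted BiP-binding protein, had 4135 and 3780 on the NC1153 arrays, against 5066 and 4098 on the DMSO arrays, and overlapped likewise (log2 change −0.20, adjusted p = 0.60). HYOU1, a nucleotide exchange factor of BiP, had 2825 and 2851 on the NC1153 arrays, against 2670 and 2179 on the DMSO arrays. CRELD2, an ER protein with disulfide isomerase activity, had 1560 and 1407 on the NC1153 arrays, against 1343 and 1185 on the DMSO arrays. In both genes the NC1153 arrays were above the DMSO arrays by less than the test could call, with log2 changes of 0.23 (adjusted p = 0.53 for HYOU1 and 0.57 for CRELD2).

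The lectin chaperones lay on either side of 0. CANX had a log2 change of 0.12 (adjusted p = 0.74), CALR of −0.27 (0.41) and UGGT1, which returns misfolded glycoproteins to them, of −0.29 (0.53). A dimmer CALR probe set had 718 and 769 on the NC1153 arrays, against 1298 and 1124 on the DMSO arrays. Its log2 change was −0.70, with a limma unadjusted p of 0.0029 (adjusted p = 0.065, or 0.023 with the replicate block).

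None of the 8 folding enzymes passed by its brightest probe set. At an unadjusted p under 0.05, 1 of the 8 was lower, where 9.66% of all genes were. That gene was TXNDC11, a thioredoxin-domain partner of EDEM proteins, with 531 and 500 on the NC1153 arrays, against 1028 and 702 on the DMSO arrays. Both NC1153 arrays were below both DMSO arrays, with a log2 change of −0.72 ± 0.23 (SE, adjusted p = 0.14, or 0.041 with the replicate block). ERO1A, the oxidase that recharges protein disulfide isomerase, had a log2 change of −0.17 (adjusted p = 0.60) by its brightest probe set. Another ERO1A probe set fell by 0.61 ± 0.14 (SE, adjusted p = 0.042), with 2527 and 2348 on the NC1153 arrays, against 3846 and 3613 on the DMSO arrays. All 3 ERO1A probe sets had negative values, and the call of this one was lost whichever array was left out, with adjusted p between 0.056 and 0.34.

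PDIA4, a disulfide isomerase, had 1749 and 2696 on the NC1153 arrays, against 2732 and 2663 on the DMSO arrays. Only NC1153 replicate 1 stood apart there, and the log2 change of −0.31 did not pass (adjusted p = 0.53). PPIB, the ER prolyl isomerase cyclophilin B, showed the same pattern, with 6184 and 12364 on the NC1153 arrays, against 11605 and 12049 on the DMSO arrays. Its log2 change was −0.44 (adjusted p = 0.50), and without NC1153 replicate 2 it was −0.94 (0.0098). PDIA3 had log2 changes of −0.58 between the arrays numbered 1 and −0.0010 between those numbered 2. In P4HB, the classic protein disulfide isomerase, the log2 change was 0.18 (adjusted p = 0.58), in PDIA6 −0.16 (0.72) and in ERO1B 0.33 (0.63).

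The negative folding enzyme values lay mostly between the arrays numbered 1, which include NC1153 replicate 1, the array with the highest scaling factor. Their median was −0.51 between the arrays numbered 1 and 0.028 between those numbered 2, and 6 of 8 were negative in the first pair against 3 in the second. Chaperones had medians of −0.26 and 0.068 in the same pairs, again with 6 of 9 negative in the first and 3 in the second. ERAD genes had 0.39 and 0.27, and sensors 0.32 and 0.45. All genes had medians of 0.11 and −0.092. Whether the array's brightness plays a part in the lower folding enzyme values was not tested.

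**Figure D3:**
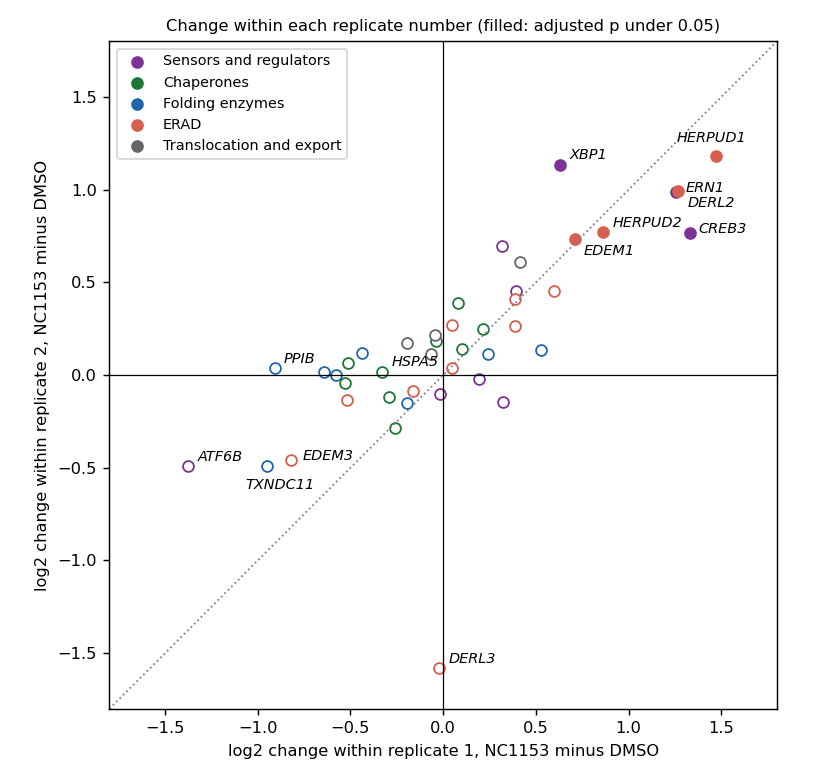
Each point is 1 of the 43 genes, with its log2 change between the arrays numbered 1 on the horizontal axis and between those numbered 2 on the vertical axis, coloured by role and filled where the adjusted p was under 0.05. The 7 filled genes lie in the upper right quadrant, on both sides of the dotted line of equal change, while PPIB lies near 0 on the vertical axis at −0.91 on the horizontal axis, and DERL3 the other way at −1.58.

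Of the translocation and export genes, SEC61A1 and SEC61B, subunits of the channel through which proteins enter the ER, had log2 changes of 0.024 (adjusted p = 0.97) and 0.086 (0.86). SERP1, a translocon-associated stress protein, had one of −0.0097 (0.99). SEC24D, a coat protein of vesicles that leave the ER, had 563 and 823 on the NC1153 arrays, against 422 and 539 on the DMSO arrays, a log2 change of 0.51 (adjusted p = 0.37). By their brightest probe sets, none of the 4 passed by limma, and none had an unadjusted p under 0.05. A dim SEC24D probe set had 83.4 and 69.1 on the NC1153 arrays, against 4.74 and 11.8 on the DMSO arrays. Its log2 change of 3.35 had a limma unadjusted p of 0.014 and did not pass (adjusted p = 0.16). Another dim SEC24D probe set had a log2 change of 2.23 (adjusted p = 0.49).

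Set against the promoter motifs shown above, 1 of the 9 genes with an ERSE match was called (XBP1), and their median log2 change was 0.072. Of the 43 genes 7 were called higher, and of all genes 3.09%. No test compared genes with and without a motif, and the groups are too small to tell their shares apart. HSPA5, with its ERSE match 66 bases before the start, had −0.16, and HERPUD1 was the 1 called gene among the 3 with ERSE-II, the other two being HYOU1 at 0.23 and SDF2L1 at −0.22. Of the genes with UPRE, 4 were measured and none was called, the lowest being TXNDC11 at −0.72. Both genes with CARE had positive values, 1.33 in HERPUD1 (called) and 0.51 in CREB3L2 (not called). Of the called genes, ERN1, CREB3, HERPUD2, EDEM1 and DERL2 held none of the 4 elements in these windows.

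Another 163 genes of the same pathways, none of them among the 46, were followed as context, and 156 were measured. Of these, 16 rose and 1 fell, where 3.09% of all genes rose and 2.84% fell. The PERK and ATF4 genes held 7 of the rises among 13 measured, with a median log2 change of 0.78. DDIT3, the gene of the transcription factor CHOP, had 3618 and 3560 on the NC1153 arrays, against 202 and 333 on the DMSO arrays, and its log2 change of 3.79 was the largest of them. TRIB3 (2.30), ATF3 (2.16), PPP1R15A (1.97) and CHAC1 (1.51) followed. ATF4 rose by 0.78 (adjusted p = 0.017), and EIF2AK3, the gene of PERK, had 0.61 (0.069, or 0.027 with the replicate block). DDIT3, TRIB3, ATF3 and PPP1R15A were among the 5 context genes called higher with centring on spiked-in controls, where none of the 7 called ER genes passed. Without either DMSO array ATF4 did not pass (adjusted p up to 0.27).

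Among 29 other ER chaperones and folding enzymes 4 rose and 1 fell, where 3.09% of all genes rose and 2.84% fell. DNAJB9, a co-chaperone of BiP known as an XBP1 target, had 3729 and 3956 on the NC1153 arrays, against 1588 and 1709 on the DMSO arrays, and rose by 1.22 ± 0.14 (SE, adjusted p = 0.0031). HSPA13 rose by 1.06, DNAJC1 by 0.84 and ERP44 by 0.72, and the calcium-binding protein gene RCN2 fell by 0.92. DNAJC3, a co-chaperone that also inhibits PERK, had a log2 change of 0.49 (adjusted p = 0.19). Among 29 other ERAD genes, RHBDD1 rose by 1.31, with 1 of its 5 probe sets of opposite sign, and UBXN8 by 0.78, and none fell. With the replicate block UBXN4 was also called higher (adjusted p = 0.023) and UBE2G2 lower (0.046). DNAJC1 and ERP44 did not pass without NC1153 replicate 1 or without DMSO replicate 2 (adjusted p up to 0.15 and 0.22), and UBXN8 passed only without NC1153 replicate 2 among the 4 leave-outs (up to 0.13).

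In the remaining lists the rises were single genes, where 3.09% of all genes rose. GFPT1, an enzyme of the pathway that leads to a sugar donor for glycosylation, rose by 0.94 among 19 N-glycosylation genes. BET1 rose by 0.70 among 23 genes of ER to Golgi transport. TMBIM6, an inhibitor of ER stress death, rose by 0.75 among 19 genes of ER stress death and calcium. None of 24 translocon and signal peptidase genes passed by limma, with 5 higher and 2 lower at an unadjusted p under 0.05. Over all genes, 10.7% were higher and 9.66% lower at that level. With the replicate block SEC62, TRAM1 and BCAP29 were called higher (adjusted p = 0.048, 0.036 and 0.024), where 5.39% of all genes were. BET1 did not pass whichever array was left out (adjusted p up to 0.22), nor TMBIM6 without either DMSO array (up to 0.20). Without single arrays, 11 to 16 of the context genes were called higher and 1 to 5 lower, the 5 without NC1153 replicate 2. The rises numbered 3 with median centring and 0 with an eBayes fit without a variance trend.

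The authors' deposited table of selected probe sets holds 10 of the 109 probe sets of these genes, each of a different gene and all higher with NC1153. In all it holds 2252 of the 54675 probe sets of the array. How many of those 2252 are higher was not counted, so the shared direction has no background here. In the authors' deposited table the log2 changes, from the same arrays processed by RMA, were 1.26 for ERN1, 1.22 for HERPUD1, 1.00 for HERPUD2, 0.97 for XBP1, 0.72 for DERL2, 0.67 for CREB3 and 0.62 for EDEM1. The authors' deposited table also lists CREB3L2 at 0.69, MBTPS2 at 0.70 and SELENOS at 0.60, which did not pass here. Of the 9 probe sets called here, 7 are in the authors' deposited table. The other two are the brightest HERPUD2 probe set and the ERO1A probe set. The arrays are the same, so this is another processing and not an independent measurement.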

How the data were processed

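The authors deposited a table of intensity values on a linear scale for 54675 probe sets on 4 arrays, of which 62 control probe sets were left out of the tests. The mean after trimming 2% at each end was 500.07 on each array, the form of a globally scaled signal, and the software behind it is not given in the sources used here. A second table, deposited by the authors, gives log2 values by RMA and raw p-values for 2252 probe sets that they selected, per the file headers, and it served for comparison only.

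From the deposited signals, log2 was taken with no pseudocount, and NC1153 minus DMSO was tested by limma 3.58.1 under R 4.3.3 (lmFit, then eBayes with trend=TRUE) over 54613 probe sets, two-sided, with Benjamini-Hochberg adjustment and a threshold of 0.05. The fit has 2 residual degrees of freedom and 7.27 prior ones. Each gene is represented by its brightest single-gene probe set. The members and lists were chosen with earlier results of these data known. Full values are given for members with a called probe set and for a set list of ATF6 and XBP1 readouts; from the other pathway lists the up to 5 called genes with the largest changes are named, and DNAJB9, DNAJC3, EIF2AK3, ATF4 and DDIT3 always. The number of arrays limits the precision, and low signals scatter. Motifs were counted in RefSeq windows (GRCh38.p14), present for 42 of the 46 genes and not for PDIA3, DERL1, DERL3 and SEC24D.

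As a check of pairing, the deviations from the group mean of the 2 arrays that share a number were correlated: r was 0.055 across all probe sets and 0.12 across the brighter ones. The second table names its arrays with a number that both arrays of a replicate have in common, and no label says what that number marks. The fit without the replicate number was therefore used, and the blocked value is given where it changes the call of a member. Other pathway genes whose call it changes are named with the processing results below. The fit and the motif search were tested on simulated data. Alternatives covered the variance model, 3 normalizations, log2(signal + 50), a filter on dim probe sets, a replicate block, the mean of a gene's probe sets and leaving out each array.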

Additional observations from a re-analysis of the deposited data

How the results depend on the processing

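Among single genes, 410 results under the alternatives kept their direction and their side of the threshold, 38 lost a call, 11 gained one and 36 changed sign. The main counts were 7 genes higher and 0 lower, 8 probe sets higher and 1 lower, and 16 other pathway genes higher and 1 lower. eBayes without a trend gave 0 for all 6 counts, where 5 member genes higher and 0 lower had an unadjusted p under 0.05, and over all 19775 genes it also called 0. Median centring gave 0 member genes and probe sets in either direction (7 genes higher and 1 lower unadjusted), 3 other pathway genes higher and 0 lower, and medians of 0.33 for sensors, −0.24 for chaperones and 0.24 for ERAD genes, with 14 genes higher and 16 lower in the whole array. Centring on spiked-in controls gave 0 member genes and probe sets higher (4 genes higher and 15 lower unadjusted), 5 other pathway genes higher and 3 lower, with 49 genes higher and 610 lower in the whole array, and medians of −0.0094, −0.59, −0.66, −0.10 and −0.38 for sensors, chaperones, folding enzymes, ERAD and translocation genes. With log2(signal + 50), 2 member probe sets were lower, with 3.12% of all genes lower. Without dim probe sets, 5 of 100 member probe sets and 2 other pathway genes were lower. Fewer probe sets were tested there, and of 11940 genes 7.97% were higher and 7.41% lower. With the mean of all probe sets of a gene, 4 member genes were higher and 2 other pathway genes lower (1.59% of all genes higher and 1.65% lower), with medians of 0.49 for sensors, −0.014 for chaperones and 0.24 for ERAD genes. By that mean ERN1 (0.18, adjusted p = 0.85), XBP1 (0.83, 0.51) and HERPUD2 (0.73, 0.066) did not pass. ERN1 also missed the threshold with quantile normalization (adjusted p = 0.053). Except where named, the cause was not tested. The sign changes, none of a value past the threshold in either fit, were these. Centring on spiked-in controls gave ATF6 −0.34, MBTPS2 −0.0094, WFS1 −0.35, HSP90B1 −0.36, CANX −0.31, HYOU1 −0.20, CRELD2 −0.20, P4HB −0.25, ERO1B −0.10, EDEM2 −0.031, SEL1L −0.27, DERL1 −0.39, OS9 −0.10, SEC61A1 −0.41 and SEC61B −0.34. Median centring gave ATF6 −0.00035, WFS1 −0.0045, HSP90B1 −0.017, DERL1 −0.046, SEC61A1 −0.065 and SEC61B −0.0028, and quantile normalization gave SERP1 0.016. Leaving out 1 array gave −0.16 to 0.34 in ATF6, −0.0079 to 0.18 in WFS1, −0.60 to 0.022 in PDIA3, −0.94 to 0.064 in PPIB, −0.017 to 0.10 in DERL1, −0.19 to 0.17 in SERP1, −0.12 to 0.0018 in MBTPS1, −0.14 to 0.19 in SEC61A1, −0.33 to 0.016 in HSPA5, −0.34 to 0.020 in PDIA6, −0.041 to 0.18 in HSP90B1 and −0.058 to 0.23 in SEC61B. By the mean of all probe sets of a gene, 6 genes had the other sign: ATF6 (−0.13), ATF6B (0.85), ERO1B (−0.47), DERL1 (−0.34), UBE2J1 (0.040) and SERP1 (0.089).

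With the replicate block, 8 member genes were higher and 2 lower, 6 member probe sets were lower and 4 other pathway genes were lower, while over all genes the block called 5.39% higher and 5.18% lower. The member genes called lower were EDEM3 and TXNDC11, and SELENOS was called higher. Other pathway genes called higher with the block, but not in the main fit, were EIF2AK3, NFE2L2, ERP29, SEC62, TRAM1, BCAP29, UBXN4 and SEC24B. Those called lower with the block, but not in the main fit, were TMX1, UBE2G2 and BHLHE40. No label states such a pairing. Among member probe sets, the deviations of equally numbered arrays correlated with r = −0.060.

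Leaving out 1 array gave 4 to 8 member genes higher and 0 to 4 lower, 5 to 9 probe sets higher and 0 to 7 lower, and 11 to 16 other pathway genes higher and 1 to 5 lower. Medians then lay between 0.35 and 0.50 for sensors, −0.33 and 0.016 for chaperones, −0.43 and 0.011 for folding enzymes, 0.23 and 0.28 for ERAD genes, and −0.019 and 0.18 for translocation genes. The lone array left in a group is assumed to vary like the other pair. With 2 arrays a group, a miss of the threshold does not show that a gene did not differ, and dim probe sets such as those of ATF6B and DERL3 carry little information.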
